A study of Homo sapiens with 7 samples.

Results

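The replication-dependent histone genes encode the core histones H2A, H2B, H3 and H4 and the linker histone H1. They were taken as every gene in the deposited table whose symbol starts with HIST and a cluster number. The rule gave 73 of 20072 symbols, of which 61 had at least 1 read in some library and 12 were listed at 0 in all 7. The genes were read in HCT116, an established human colorectal carcinoma cell line, in log-phase growth in serum-free McCoy's 5A medium with epidermal growth factor, insulin and transferrin. Cells for the polysome libraries were given cycloheximide, which halts ribosomes on the mRNA, before harvest, and no such step is named for the TR and RA libraries, so it cannot be told apart from the difference between TA and the other parameters. Transcription rate (TR) was measured by GRO-seq in 2 libraries, in which polymerases already on the DNA are let run on in isolated nuclei and their new RNA is sequenced. RNA abundance (RA) was measured by RNA-seq in 3 libraries, and translation activity (TA) was measured in 2 libraries of the mRNA that sediments with polysomes. RA and TA were read from RNA that had passed an mRNA isolation kit, whereas the GRO-seq RNA had not, so this step cannot be told apart from the difference between the parameters. Kits of this type generally capture the poly(A) tail.

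Replication-dependent histone genes lie in clusters, have no introns in their coding sequence and are known for high expression in S phase, when new DNA is packed into nucleosomes. Their mRNAs are known to end without a poly(A) tail, at a conserved stem-loop that is bound by SLBP and cut with the help of the U7 snRNP. Some of the genes are known to give longer, polyadenylated mRNAs as well, and the replacement histone genes, such as H2AFZ and H3F3B, are known to give polyadenylated mRNAs throughout the cell cycle.

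The symbols were matched to the GENCODE annotation of the build the files use (GRCh37), which found 69 of the 73 genes. The other 4 were HIST1H2BF, HIST1H2BG, HIST1H4F and HIST2H2BA. Among the matched symbols, HIST2H2BC and HIST1H2APS1 were annotated as pseudogenes. Of the 67 matched genes with a coding sequence and a stop codon, all 67 had 1 coding exon, and 64 (95.5%) held a stem-loop in the 100 bases after the stop codon. The motif was found on the transcribed strand in 131 of 19443 coding genes (0.674%). It was searched as 16 bases that begin with GG and end with CC, with a stem of 6 base pairs of which at least 5 had to pair and a loop of 4 bases that begins with TT. The exceptions were HIST1H3E, HIST1H2BI and HIST1H4L. The stem-loop began 23 to 68 bases past the stop codon, with a median of 37.

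The stem-loops of 10 genes are shown because they hold the main forms of the motif and the genes with the highest RA. The capitals mark the 16 bases of the stem-loop, with 5 bases on each side, from the GRCh37 genome and read 5′ to 3′ on the transcribed strand.
HIST1H1C: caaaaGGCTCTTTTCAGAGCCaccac
HIST1H2AC: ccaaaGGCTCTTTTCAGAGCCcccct
HIST3H2A: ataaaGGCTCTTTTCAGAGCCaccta
HIST1H2BD: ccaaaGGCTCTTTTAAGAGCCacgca
HIST1H2BK: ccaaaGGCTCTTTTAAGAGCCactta
HIST1H3B: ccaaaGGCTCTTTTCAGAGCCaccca
HIST1H4B: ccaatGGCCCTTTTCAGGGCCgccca
HIST2H2AC: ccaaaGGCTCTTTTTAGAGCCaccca
HIST1H2AG: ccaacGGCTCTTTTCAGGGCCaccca
HIST1H2AK: aaaaaGGTTCTTTTCAGAGCCaccta
The first form was found in 39 genes of classes H1, H2A, H2B and H3. A stem with GGCCC on its left side was found in 13 genes, all of class H4, 9 with the loop of HIST1H4B and 4 with another loop base. The form of HIST1H2BD and HIST1H2BK was found in 9 genes, and the forms of HIST2H2AC, HIST1H2AG and HIST1H2AK in 1 gene each. In the genome the 16 bases lie at chr6:26055972-26055987 for HIST1H1C (minus strand), chr6:27114145-27114160 for HIST1H2BK (minus strand) and chr1:228645070-228645085 for HIST3H2A (minus strand).

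The libraries held 3391897 and 5629982 reads for TR, 20299018 to 22532134 for RA and 30805391 and 22421062 for TA, as worked out from the deposited RPKM values. The histone genes took 0.781% (95% Wilson interval 0.772% to 0.791%) and 0.93% (0.922% to 0.938%) of the reads in the TR libraries. In the RA libraries they took 0.0115% (0.011% to 0.012%), 0.0111% (0.0106% to 0.0115%) and 0.00866% (0.00826% to 0.00907%). The TA libraries gave 0.00553% (0.00528% to 0.0058%) and 0.00646% (0.00613% to 0.0068%). These intervals cover counting error only, since the reads carry no molecular identifiers. The study calls the libraries of a parameter biological replicates, and does not say whether they came from separate cultures, so the p-values below measure the spread between these libraries. The 6 epithelial marker genes checked (such as EPCAM and KRT8) all stood at 1 RPKM or more in every library. Of 8 markers of other cell types, 5 stayed under 1 RPKM in every library, and the defining leukocyte marker PTPRC reached at most 0.437 RPKM. An RPKM value is relative to its library and gives no number of molecules in a cell.

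In the GRO-seq libraries 36 of the 73 histone genes averaged 100 RPKM or more, 8 had 10 to 100, 7 had 1 to 10, and 10 with reads were under 1. Histone genes made up 25 of the 100 genes with the highest TR and 10 of the first 20. None stood among the first 100 genes in RA or in TA. The median TR of the 61 genes with reads was 155.6 RPKM, against 9.99 RPKM over the 18187 genes with a read. The median RA was 0.39 RPKM (0.122 without RA replicate 1) against 4.87, and the median TA was 0.0371 RPKM against 3.07. Fewer molecules per cell and fewer cells that express a gene, such as cells in S phase, cannot be told apart in these bulk libraries.

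**Figure D1:**
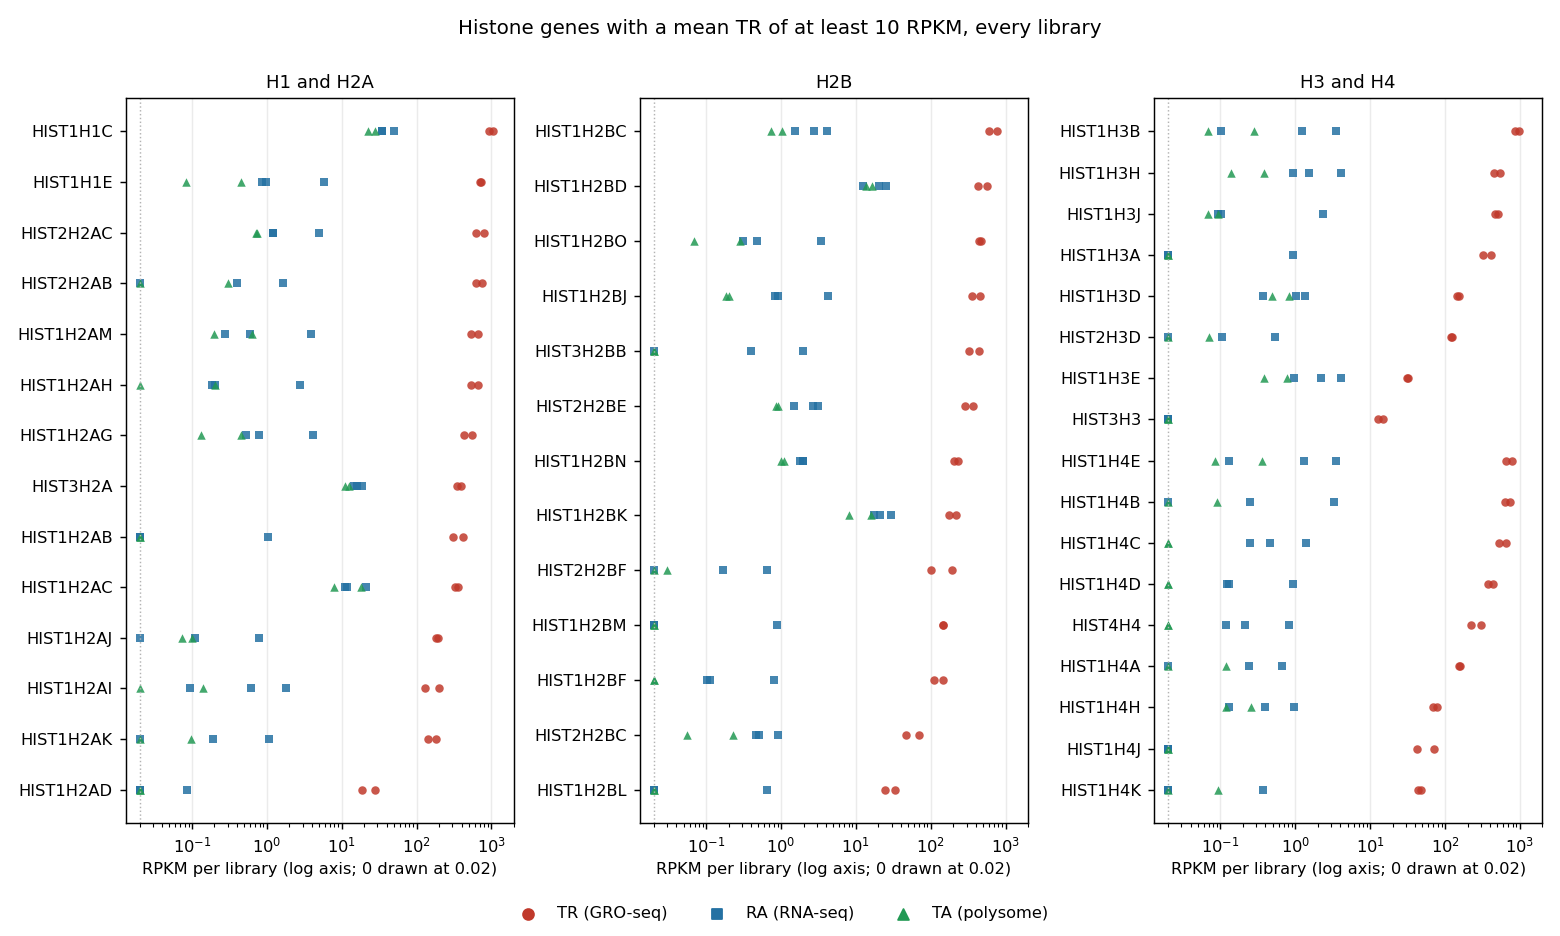
Every library value (points, RPKM on a log axis) of the 44 histone genes with a mean TR of at least 10 RPKM, by class, with TR as circles, RA as squares and TA as triangles and with 0 drawn at 0.02. In each of the 44 genes both TR libraries lie above all RA and TA libraries. These genes were kept for their TR, which favours such an order, and its share over all genes is not given here.

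TR and RA were compared with limma on log2(RPKM + 0.1), with Benjamini-Hochberg adjustment over all 18187 genes and a threshold of 0.05. A stability index, log2(RA/TR), was read from the same scale, which understates the change of genes near 0. Of the 61 histone genes with reads, 55 were lower in RA than in TR and 0 were higher. Over all genes, 45.1% were called lower and 15.1% higher, and at an unadjusted p under 0.05 the histone genes also gave 0 higher. The median stability index of the histone genes was -7.52, against -0.60 over all genes fitted. The 6 genes that were not called had a TR of 0 in 1 of the TR libraries and under 1 RPKM in the other. They were HIST1H1B, HIST1H2AL, HIST1H2BA, HIST1H4F, HIST1H4L and HIST2H2BA. Of the 9086 genes with a TR of at least 10 RPKM, 16 of the 20 lowest in the index were histone genes, as were 26 of the 50 lowest.

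In RA, 11 of the 61 genes had 0 reads in all 3 libraries. For 3 of them TR was above the floor of 3 reads. For HIST1H4J, whose coding sequence is identical to that of HIST1H4K, no fold is given, because reads of the copies cannot be assigned to 1 gene. With a floor of 3 reads in each RA library, TR was at least 46.7-fold higher than RA for HIST3H3 and at least 7.48-fold higher for HIST1H3C. With the 3 genes at their bound and the ratio taken without a pseudocount, the median log2 of RA over TR was -7.91 over 53 genes.

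**Figure D2:**
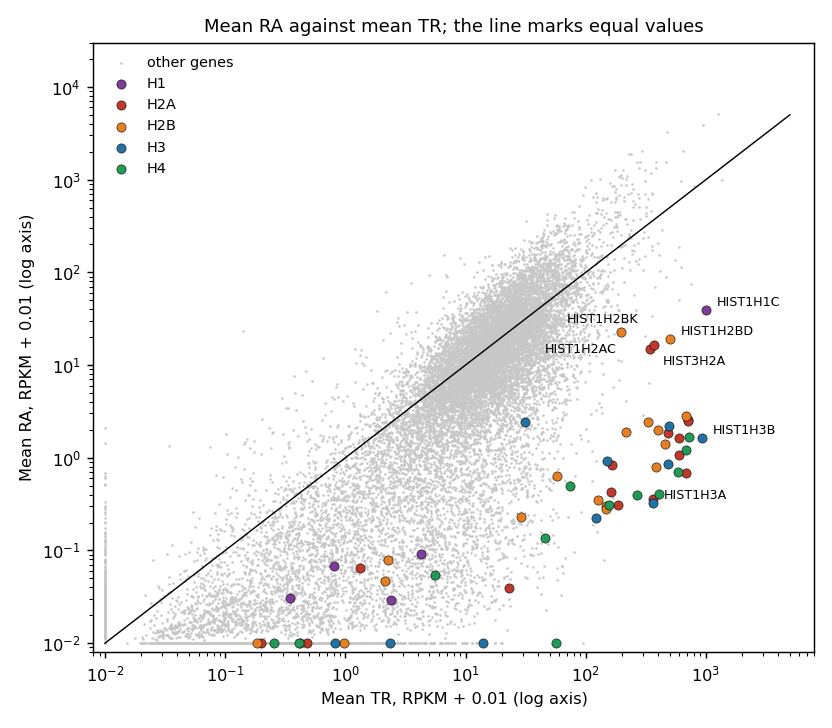
Mean RA against mean TR of each gene with a read (RPKM + 0.01, both axes logarithmic), with other genes in grey and the 61 histone genes coloured by class. The histone genes lie under the line of equal values, and the 5 with a mean RA of at least 10 RPKM (labelled, with HIST1H3B and HIST1H3A for comparison) lie above the other histone genes.

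The linker histones, which bind the DNA between nucleosomes, held the highest and some of the lowest TR values. HIST1H1C had 921 and 1063 RPKM in the TR libraries, the third highest mean of the whole table, 34.5, 50.2 and 34.1 RPKM in RA, and 22.4 and 28.0 RPKM in TA. Its groups did not overlap between TR and the other parameters. RA was lower than TR by a log2 difference of -4.66 ± 0.23 (SE; limma, adjusted p = 5.634e-06), with a linear ratio of means of 25.1. HIST1H1E had 708 and 722 RPKM in TR, but 5.84, 0.961 and 0.867 RPKM in RA and 0.0827 and 0.455 RPKM in TA. Its log2 difference was -8.61, and its TR mean was 279.8 times its RA mean, or 782 times without RA replicate 1. With TR values of the same order, the mean RA of the HIST1H1C and HIST1H1E genes was 39.6 and 2.56 RPKM. The other H1 genes were near the limit of detection. TR was 2.27 and 2.5 RPKM for HIST1H1A, 2.44 and 6.13 for HIST1H1T, known as a testis linker histone, 1.14 and 0.457 for HIST1H1D, and 0 and 0.675 for HIST1H1B.

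Of 18 H2A genes 12 had a TR of at least 10 RPKM, with a median of 366.2 RPKM and a range of 23.0 to 708.5. HIST1H2AC and HIST3H2A were the only H2A genes with a mean RA of 10 RPKM or more. HIST3H2A had 348 and 394 RPKM in TR, 14.5, 16.1 and 18.4 in RA and 11.1 and 12.6 in TA. HIST1H2AC had 322 and 361 RPKM in TR, 11.1, 21.4 and 11.9 in RA and 18.1 and 7.92 in TA, so that RA and TA overlapped. Their stability indices were -4.50 and -4.58. The other 10 genes with a TR of at least 10 RPKM had a mean RA of at most 2.47 RPKM, the value of HIST2H2AC. HIST2H2AB had 615 and 749 RPKM in TR and 1.65, 0.396 and 0 RPKM in RA, an index of -10.6 that moved to -11.6 without RA replicate 1. HIST1H2AB had 304 and 419 RPKM in TR, 1.03 RPKM in RA replicate 1 from 10 reads, and 0 in the other RA and in both TA libraries.

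Of 20 H2B genes 13 had a TR of at least 10 RPKM, with a median of 216.7 RPKM. HIST1H2BC led with 601 and 756 RPKM in TR, against 4.16, 2.74 and 1.56 in RA and 0.741 and 1.02 in TA. HIST1H2BK had 175 and 215 RPKM in TR, 29.1, 17.5 and 21.0 in RA, and 8.16 and 15.7 in TA. Its log2 difference of -3.13 ± 0.33 (SE; limma, adjusted p = 0.0001598) was the smallest decrease among the 44 histone genes with a TR of at least 10 RPKM, and its TR mean was 8.66 times its RA mean. HIST1H2BD had 429 and 571 RPKM in TR, 12.4, 25.0 and 20.2 in RA, and 13.8 and 16.4 in TA. Only 25.9% of the 50-base windows of the HIST1H2BK coding sequence occur at 1 place in the genome, so its value rests on the reads the authors' aligner placed there. HIST1H2BN had 204 and 230 RPKM in TR and 1.98, 1.78 and 1.95 RPKM in RA, from 18 reads in each RA library. HIST1H2BA, known as a testis H2B, had 0 and 0.813 RPKM in TR.

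Among the H3 genes, 8 of 14 had a TR of at least 10 RPKM. HIST1H3B had 862 and 982 RPKM in TR, 3.55, 1.22 and 0.103 in RA and 0.0688 and 0.284 in TA, with TR 567-fold over RA, or 1391-fold without RA replicate 1. HIST1H3A had 324 and 407 RPKM in TR, 0.945 RPKM from 9 reads in RA replicate 1 and 0 in every other RA and TA library. Its index of -10.7 was the lowest of all histone genes, and leaving out RA replicate 1 puts its RA at 0. HIST1H3E, which lacks the stem-loop, had 30.6 and 31.9 RPKM in TR and 0.96, 4.04 and 2.21 RPKM in RA, with an index of -3.86. HIST3H3, known as a testis H3, had 14.7 and 12.9 RPKM in TR and 0 reads in RA and TA.

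No H4 gene reached 2 RPKM in mean RA. Of 15 H4 genes 9 had a TR of at least 10 RPKM, the highest being HIST1H4E with 651 and 790 RPKM and HIST1H4B with 639 and 729 RPKM. RA was 3.53, 1.30 and 0.129 RPKM for HIST1H4E and 3.31, 0.249 and 0 RPKM for HIST1H4B. Over the H4 genes with a TR of at least 10 RPKM the median index was -9.35, and the highest was -7.22, that of HIST1H4H. For the same TR range the median was -6.64 in H1 (2 genes), -8.72 in H2A (12), -7.96 in H2B (13) and -8.51 in H3 (8). Without RA replicate 1 these medians were -9.97 in H4, -7.02 in H1, -9.60 in H2A, -8.28 in H2B and -9.15 in H3. These medians are descriptions of groups of few genes and were not tested. HIST4H4, the only gene of its cluster, on chromosome 12, had 225 and 306 RPKM in TR and 0.837, 0.215 and 0.118 RPKM in RA.

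By cluster, in HIST1, 45 of 50 genes with reads were lower in RA than in TR, in HIST2 6 of 7, in HIST3 3 of 3 and in HIST4 1 of 1. Of all genes fitted, 45.1% were called lower. The median TR was 152.3 RPKM in HIST1, 147.9 in HIST2 and 370.8 in HIST3.

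Long annotated ends were compared next, since a transcript that runs far past the stem-loop could carry a poly(A) tail. An annotated transcript reached at least 200 bases past the stop codon in 13 of the 67 coding genes, and in the other 54 it ended 42 to 88 bases past it. All 13 long ends held AATAAA or ATTAAA, 10 of them within 30 bases of the annotated end, and of the other 54 genes 1 held either. The long ends span 272 to 4594 bases, so their length alone gives more places for a match, and this was not tested. The 13 were HIST1H2AC, HIST1H2BC, HIST1H2BD, HIST1H2BE, HIST1H2BJ, HIST1H2BN, HIST1H3E, HIST1H3H, HIST2H2AA3, HIST2H2BE, HIST2H2BF, HIST3H2A and HIST3H2BB. Of these, 8 were H2B genes, 3 H2A, 2 H3, and 0 were H1 or H4. Among genes with a TR of at least 10 RPKM, the median TR was 370.8 RPKM for 11 genes with a long end and 361.5 RPKM for 31 without. Median RA was 2.40 RPKM against 0.682, and the median stability index was -7.08 against -9.04. Without RA replicate 1 the median RA was 2.15 against 0.188 RPKM, and the median index -7.17 against -9.87.

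The sets overlapped. Of the 12 genes with a long end and reads, 3 had a mean RA of at least 10 RPKM, namely HIST1H2BD, HIST1H2AC and HIST3H2A. HIST3H2BB and HIST2H2BF also had a long annotated end, but had 1.96, 0.393 and 0 RPKM and 0.646, 0.166 and 0 RPKM in RA. HIST1H1C had the highest RA of all and no long annotated end. HIST1H2BK had none in this annotation, but the exon length in the authors' own gene models was 839 bases for a coding length of 381. Exon lengths in those models passed the coding length by at least 200 bases for HIST1H2BD, HIST1H2BK, HIST1H3D, HIST2H2BE and HIST2H2BF only, while HIST1H2AC and HIST3H2A were counted over 546 and 496 bases, which exceeds their coding length of 393 bases by less than the annotated ends of 1039 and 446 bases past the stop codon.

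RA replicate 1 stood apart for these genes, and also for the chaperone and replacement histone genes given below. Of the 44 genes with a TR of at least 10 RPKM, 32 (72.7%) were higher in RA replicate 1 than in both other RA libraries, against 36.8% of all genes fitted and 39.3% of the 4855 genes with a mean RA of 0.1 to 5 RPKM. The median ratio of replicate 1 to the mean of replicates 2 and 3 was 4.97 over 38 histone genes and 0.983 over all genes. Of the genes without a long annotated end, 25 of 31 were highest in replicate 1, and the median ratio was 5.55 over 25 genes. With a long end, 6 of 11 were highest there and the median ratio was 1.15. HIST1H2AM had 3.95 RPKM (39 reads) in RA replicate 1, against 0.273 (3 reads) and 0.599 (6 reads) in replicates 2 and 3. HIST1H2AC, HIST1H2BD, HIST1H3E and HIST1H1C went another way and were highest in replicate 2.

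Taking the 31 genes with a TR of at least 100 RPKM and a mean RA under 10, the median RA was 0.515% of TR in replicate 1, 0.103% in replicate 2 and 0.0445% in replicate 3. Without RA replicate 1 the count of genes lower in RA than in TR was still 55, and the median stability index was -7.71. The number of histone genes with a mean RA of at least 1 RPKM was 20 with replicate 1 and 11 without it. Of the 10 histone chaperone and assembly genes listed below, 9 were also highest in that library, ASF1A being the exception. The summed value of these 10 genes was 514.3, 192 and 259.8 RPKM in RA replicates 1, 2 and 3, and 292.8 and 286.3 RPKM in TR. Among them, MCM2, a subunit of the replicative helicase, had 80.2, 14.4 and 32.3 RPKM in RA, and ASF1B, a chaperone of H3 and H4, had 90.6, 10.2 and 28.0. The replacement histones went the same way, with 10 of 12 highest in RA replicate 1. Their summed value was 1836, 984.5 and 1093 RPKM in RA replicates 1, 2 and 3. The part of this difference between the RA libraries in the result was not tested.

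**Figure D3:**
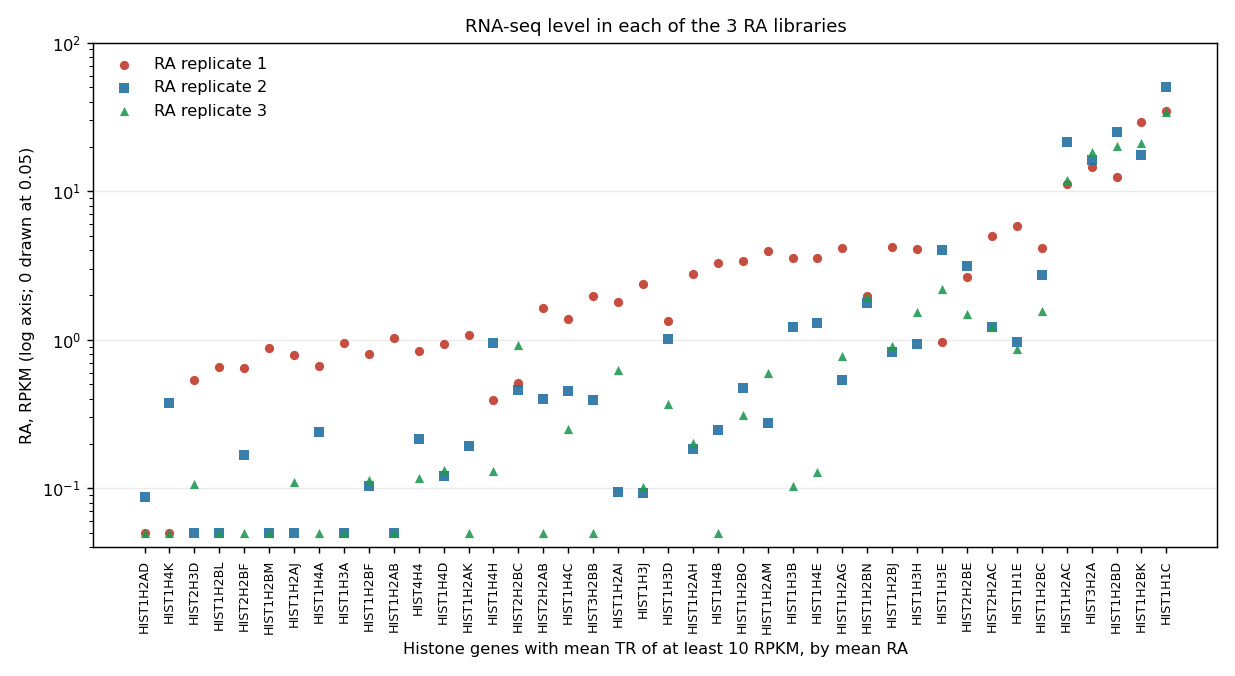
RA of each library (RPKM, log axis, 0 drawn at 0.05) for the 42 histone genes with a mean TR of at least 10 RPKM and a read in RA, ordered by mean RA. Red circles (replicate 1) lie above the squares and triangles of replicates 2 and 3 in most genes with a low RA, and show no such order in the 5 genes at the right, with a mean RA of at least 10 RPKM.

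The TR libraries lay closer together. TR replicate 2 was higher than replicate 1 in 39 of the 44 genes, with a median ratio of 1.22, against 1.004 over 10825 genes with at least 1 RPKM in all 3 parameters. The ratio ranged from 0.839 to 1.9.

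TA and RA were compared in the same limma fit, and share the RA libraries with the comparison above. In TA, 28 of the 61 genes had 0 reads in both libraries, and 6 had a mean of at least 1 RPKM. The median translation index, log2(TA/RA) on the same scale, was -0.95 over the 61 genes and -0.22 over all genes fitted. Many of the histone values lay at or near 0, which limits both this median and the calls, and the medians were not tested. Of the 61 genes 8 were lower in TA than in RA and 0 were higher. Over all genes 20.4% were called lower and 4.38% higher, so the share of histone genes called (8 of 61) lay under the background. At an unadjusted p under 0.05 there were 16 lower and 0 higher. With each library centred on its median, 2 of the 61 were called lower, and the split over all genes turned from 3709 lower and 797 higher to 1678 lower and 1875 higher. The library medians over 10825 genes were 3.83 to 3.87 on the log2 scale in RA and 3.47 to 3.52 in TA. The 8 genes were HIST1H2BC, HIST1H2BJ, HIST1H2BN, HIST1H3H, HIST1H4C, HIST2H2BC (annotated as a pseudogene), HIST2H2BE and HIST4H4. Without TA replicate 1, or without TA replicate 2, 0 of the 61 were called lower, without either TR library 1 was, and without RA replicate 2 the count was 5.

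The 6 genes with at least 1 RPKM in TA were HIST1H1C, HIST1H2BD, HIST1H2AC, HIST1H2BK, HIST3H2A and HIST1H2BN, and the first 5 of them took 91.3% and 90.3% of the histone reads in the TA libraries. The same 5 took 19.7% and 19.8% in the TR libraries and 64.0%, 83.6% and 87.3% in the RA libraries. These shares follow from their choice by RA and are given as a description. Their translation indices, the log2 of TA over RA, were -0.63 for HIST1H1C, -0.29 for HIST1H2BD, -0.24 for HIST1H2AC, -0.95 for HIST1H2BK and -0.46 for HIST3H2A. None of the 5 differences passed the threshold. Only HIST1H2BN did, with 1.08 and 0.993 RPKM in TA against 1.78 to 1.98 in RA, a log2 difference of -0.81 ± 0.16 (SE; limma, adjusted p = 0.0151). Over the 10825 genes with at least 1 RPKM in all 3 parameters the median index was -0.28.

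In TA against TR, 55 of the 61 genes were lower and 0 were higher, against 53.0% and 13.4% of all genes. With each library centred, the split over all genes moved from 9634 lower and 2436 higher to 7216 and 4637, and 55 of the 61 histone genes were still called lower.

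Histone genes with few or no GRO-seq reads lay in stretches on chromosome 6. Of the 53 genes that could be placed there, 33 had a TR of at least 10 RPKM and 20 did not. The longest stretch under 10 RPKM held 6 genes in a row, from HIST1H1D to HIST1H2BI, with start sites at 26235215 to 26273159 on chromosome 6 (37.9 kb, GRCh37). HIST1H1D had a mean of 0.798 RPKM, and HIST1H4G, HIST1H3F, HIST1H2BH, HIST1H3G and HIST1H2BI were at 0 in every library. Between 96.7% and 100% of the 50-base windows of these 6 genes occur at 1 place in the genome. A count of 0 allows up to 3 reads, which for the HIST1 coding genes at 0 stands for 2.15 to 2.98 RPKM in TR replicate 1 and 1.30 to 1.79 in replicate 2, over the coding length. A value of 0 may also come from the mapping, the counting or the gene models. H3F3A, a replacement histone gene in wide use, was at 0 in both TR and all 3 RA libraries. Of its 7079 windows, which include introns, 90.1% were unique, so this share does not describe its exons alone.

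A second stretch held HIST1H2AL, HIST1H1B, HIST1H3I and HIST1H4L within 8.22 kb, with a mean TR of 0.189 to 0.804 RPKM. It lies between HIST1H2BN (216.7 RPKM) and HIST1H3J, HIST1H2AM and HIST1H2BO (455.1 to 596.9 RPKM). A pair of testis genes, HIST1H2AA and HIST1H2BA, opened the first stretch, with HIST1H2APS1 and HIST1H1A, at 0 to 2.38 RPKM. These stretches were picked after their values were seen and were not tested.

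**Figure D4:**
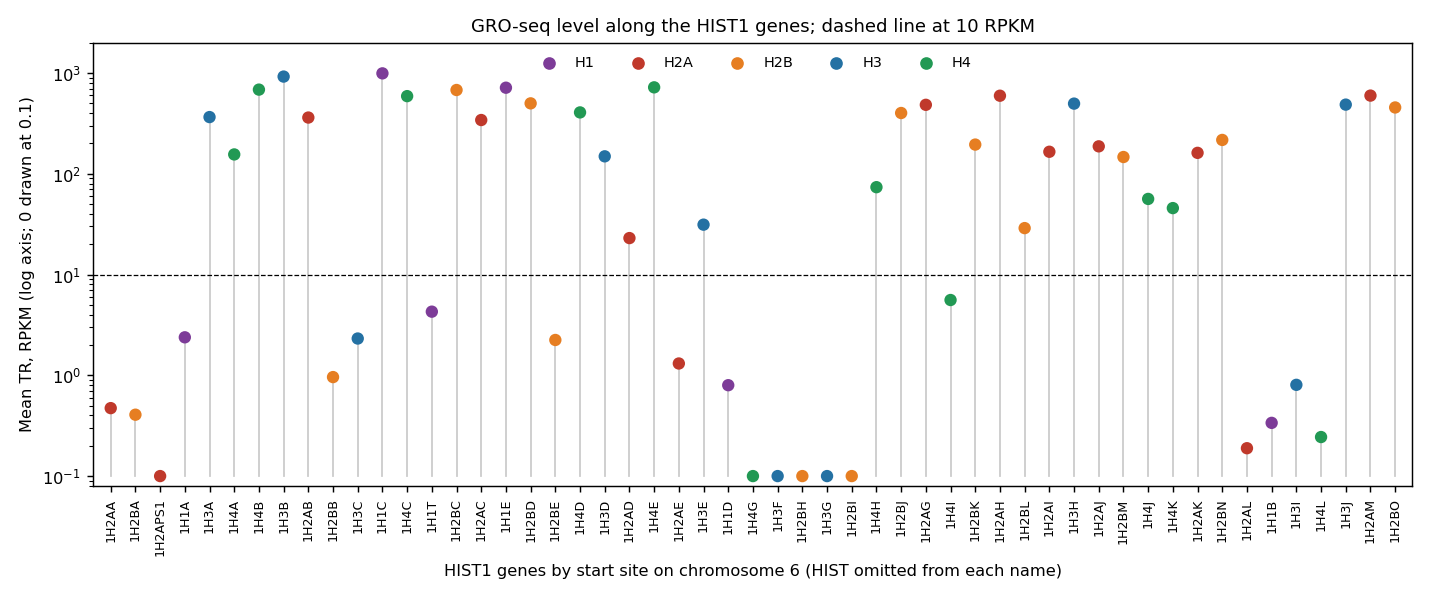
Mean TR of the 53 HIST1 genes placed on chromosome 6 (RPKM, log axis, 0 drawn at 0.1), in the order of their start sites and coloured by class. The 33 genes above the dashed line at 10 RPKM alternate with runs of genes under it, the longest with 6 genes from HIST1H1D to HIST1H2BI.

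The 6 HIST2 genes at 0 were another case. HIST2H2AA3 and HIST2H2AA4, HIST2H3A and HIST2H3C, and HIST2H4A and HIST2H4B have coding sequences identical in each pair, and 0% of their 50-base windows are unique. Reads of such copies cannot be assigned to 1 gene, so 0 says nothing of their transcription. HIST1H4J and HIST1H4K also share their coding sequence, with 0% unique windows, and their TR values of 42.2 and 70.4 RPKM and 44.1 and 47.2 RPKM are uncertain for that reason. HIST1H2AI (17.7%), HIST1H2AJ (16.3%), HIST2H3D (12.2%), HIST2H2BC (20.3%) and HIST2H2BF (26.5%) have few unique windows as well. Annotated exons of another gene on the same strand cover 100% of HIST2H2BC and HIST1H2APS1, 96.6% of HIST1H3D, 85.3% of HIST1H2AD and 71.0% of HIST1H2AM. On the opposite strand such exons cover 100% of HIST1H2BC, 44.7% of HIST1H4H and 15.3% of HIST2H2AB. The values of these genes may therefore include or lose reads of their neighbours.

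H2A and H2B genes often lie head to head, with their start sites close together on opposite strands. The annotation gave 11 such pairs, with 194 to 289 bases between the starts. In 9 pairs both genes had a TR of at least 10 RPKM, and in 1 neither did (HIST1H2AA and HIST1H2BA). In the pair of HIST2H2AA4 and HIST2H2BC the former is an identical copy at 0 and the latter is annotated as a pseudogene. Over the 9 pairs the higher TR was a median of 1.34 times the lower, from 1.03 to 5.72 times. In RA the median was 3.83 times, from 1.01 to 21.4 times. Without RA replicate 1 it was 7.76 times over the 7 pairs in which both genes still had reads. Some of these ratios rest on few reads in the lower gene. In RA replicates 2 and 3 there were 2 and 0 for HIST1H2AK, 2 and 2 for HIST1H2AH, and 4 and 0 for HIST3H2BB.

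HIST3H2A and HIST3H2BB had means of 370.8 and 380.8 RPKM in TR but 16.4 and 0.785 RPKM in RA, a ratio of 20.8 (88.0 without RA replicate 1). HIST1H2AH and HIST1H2BK differed in the other sense, since HIST1H2AH had 595.3 RPKM against 194.9 in TR but 1.05 against 22.5 in RA, and 0.193 against 19.2 without RA replicate 1. In the pair of HIST1H2AC and HIST1H2BC, HIST1H2BC was higher in TR (678.3 against 341.6 RPKM) and HIST1H2AC higher in RA (14.8 against 2.82). HIST1H2AG and HIST1H2BJ, and HIST1H2AM and HIST1H2BO, stayed within 1.31 times in TR and 1.16 times in RA.

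**Figure D5:**
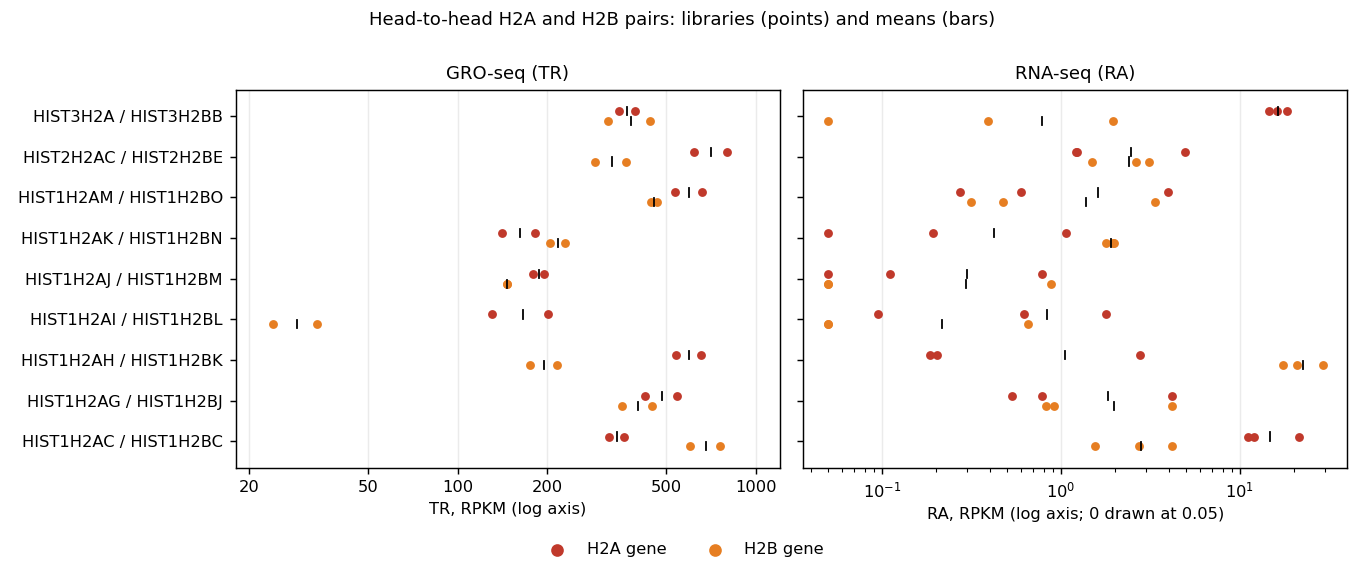
TR (left) and RA (right) in RPKM on log axes for the 9 head-to-head pairs with a TR of at least 10 RPKM in both genes, with 1 point for each library, a bar at the mean, the H2A gene in red and the H2B gene in orange. In RA the points of HIST3H2A and HIST3H2BB, and of HIST1H2AH and HIST1H2BK, stand far apart.

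The 250 bases before each start site were searched on both strands for TATAAA (the TATA box), CCAAT and the octamer ATTTGCAT, which binds POU-domain factors. Octamers were found in 13 of 18 H2A and 12 of 17 H2B promoters and in 0 of the H1, H3 and H4 promoters, against 1.54% of 19540 promoters. CCAAT was found in 4 of 14 H4 promoters (28.6%) and in 94.4% to 100% of those of the other classes, against 34.3% of all promoters. TATAAA was found in 50% to 78.6% of the promoters of a class, against 9.22%. Matches were counted on either strand at any place in the 250 bases. A site between head-to-head genes can thus count for both, as with HIST1H2AC and HIST1H2BC. Among genes with a TR of at least 10 RPKM, 31 of 43 promoters held TATAAA, and among the others 14 of 26. Octamers were found in 16 of 43 and 9 of 26. A match is a description of the letters and not of binding.

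The octamers of head-to-head pairs were often the same site. Of the 12 octamers shown by H2A and the 12 shown by H2B promoters with enough sequence around them, 7 sites were shared between an H2A and an H2B gene. In 7 H2B promoters the site lay 45 to 49 bases before the start. The sites of 3 H2B genes are shown on the H2B strand with the octamer in capitals, because their genes were compared above.
HIST1H2BC: tttcatacctcATTTGCATagctctgccca
HIST1H2BK: ctcttcaccttATTTGCATgagaggtccta
HIST1H2BJ: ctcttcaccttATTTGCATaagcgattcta
These windows of 30 bases lie at chr6:26124259-26124288, chr6:27114665-27114694 and chr6:27100603-27100632 in GRCh37, on the minus strand, and are shared with HIST1H2AC, HIST1H2AH and HIST1H2AG.

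The 12 replacement histones gave a contrast in RA. Of these, 3 were lower and 3 higher in RA than in TR, against 45.1% and 15.1% of all genes. H3F3A, at 0 in TR and RA, could not be called. The median index of the 12 was -0.23, against -0.60 over all genes fitted. H2AFX, which codes for the H2A variant phosphorylated at DNA breaks, is the only one of them with a stem-loop within 100 bases of the stop codon, and it also has a long annotated end. It had 410 and 425 RPKM in TR, within the range of the replication-dependent genes, but 187, 32.7 and 88.6 RPKM in RA and 29.4 and 96.9 in TA. H2AFJ had the lowest index (-3.03), with 23.2 and 30.9 RPKM in TR and 2.42 to 3.75 in RA. H3F3C had the highest (3.09). Of the 50-base windows of H3F3C, 73.3% were unique, and H3F3A was listed at 0 in 6 of 7 libraries. The values of both genes are uncertain, and the cause was not tested.

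Among 17 genes for the transcription, 3′ processing and turnover of histone mRNA, 6 were lower and 4 were higher in RA than in TR, with a median index of -0.08. Over all genes, 45.1% were called lower and 15.1% higher. SLBP, which binds the stem-loop, had 29.9 and 25.1 RPKM in TR and 70.5, 36.8 and 44.9 in RA, and was higher in RA by 0.83 (log2; limma, adjusted p = 0.0446). NPAT and CASP8AP2, which act in histone gene transcription, fell by 1.27 and 1.92 on the log2 scale (limma, adjusted p = 0.001962 and 0.00023). LSM10 and LSM11, subunits of the U7 snRNP, had log2 differences of 0.65 and -0.61, and neither passed the threshold. In TA against RA, 5 of the 17 genes were lower and 0 higher, CASP8AP2, LSM10 and LSM11 among the 5. Over all genes the shares were 20.4% and 4.38%, and the counts of these genes were not tested against such shares. The 10 histone chaperone and assembly genes gave 2 lower and 2 higher in RA than in TR, and 0 of either in TA against RA.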

How the data were processed

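GRO-seq (TR, 2 libraries), RNA-seq (RA, 3) and polysome (TA, 2) libraries of HCT116 cells were analysed. The authors aligned reads to hg19 with TopHat, counted them over exons with HTSeq and deposited RPKM values. Per the labels and methods, RA and TA libraries came from isolated mRNA. Tool versions, strand and counting mode are not given in the sources used here. Exon lengths, library sizes and reads were recovered from these values as whole multiples, which held to within 0.0001 of a read for 18187 of 18187 genes with values above 0.

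Differences were tested with limma 3.58.1 (R 4.3.3, trend in eBayes) on log2(RPKM + 0.1), all 7 libraries in 1 fit, with Benjamini-Hochberg adjustment over 18187 genes at 0.05. The scripts for recovery, stem-loop search and limma were tested on simulated data. Sequences, gene ends and promoters came from the GRCh37 genome with GENCODE annotation, and older symbols were matched through RefSeq and gene name tables. Python 3.11.15, pandas 2.3.3 and matplotlib 3.10.9 were used.

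The members and the lists were chosen with earlier results of these data known. Genes named were the 8 highest histone genes in mean TR, RA and TA; those highest and lowest in each index among genes at 1 RPKM or more in all parameters; the highest and lowest in RA of each class; those with long annotated ends or identical copies; and others chosen after their values were seen, such as MCM2, ASF1B and the chromosome 6 stretches. The study states that log-phase cells were divided among the 3 assays, and does not say which libraries came from the same cells. Replicate numbers shared between assays were checked as pairs. Differences of replicate 1 from replicate 2 on the log2 scale correlated at 0.149 (TR and RA), 0.02 (TR and TA) and -0.56 (RA and TA) over 10825 genes. RA replicate 3 was not part of this check. No correlation was clearly positive, so the libraries were not treated as pairs, although this check cannot tell whether libraries shared cells. By the negative value, genes higher in RA replicate 1 than in replicate 2 tended to be lower in TA replicate 1 than in replicate 2. The cause of this was not tested.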

Additional observations from a re-analysis of the deposited data

How the results depend on the processing

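The counts of histone genes lower and higher in RA or TA than in TR kept their direction and moved by less than 1.5 times under every alternative run: pseudocounts of 0.01 and 1, filters on low values, centring on the library median, only the 2 parameters compared, the replicate block and each library left out. Leaving out each library gave 55 to 59 genes lower in RA than in TR and 55 to 60 lower in TA than in TR, and 0 higher throughout. With a mean of at least 1 RPKM over the parameters, 46 of 46 were lower in each. The count of 8 genes lower in TA than in RA was not stable. It was 1 with a pseudocount of 1, 13 (of 46) with a mean of at least 1 RPKM, 2 with centring, 1 with only the 2 parameters compared and 0 with the replicate block, and 0 to 9 with a library left out (0 without either TA library, 1 without either TR library, 5 without RA replicate 2 and 9 without RA replicate 1). The cause was not tested. The median stability index was -6.23 with a pseudocount of 1, and otherwise -8.09 to -7.24; leaving out each library gave -7.81 to -7.30. The replicate block gave -7.37. In TA against RA it called 0 genes in the whole table, with 5061 genes, 18 of them histone genes, at an unadjusted p under 0.05 in limma, and it changed no other of these counts. The median translation index was -0.30 to -1.47 under all alternatives, including -0.53 without RA replicate 1, none of them past the spread of single library pairs. At 3 reads as a floor, the depth of TR libraries limits what can be said of genes under 3 RPKM. Of 560 alternative values of single named genes, 480 kept their side of the threshold, 70 lost it and 10 gained it, all in TA against RA.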
